A study of Mus musculus with 2 samples.

Results

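The miR-183/96/182 cluster is a group of 3 miRNA genes, Mir183, Mir96 and Mir182, known for its high level in the sense organs. Its members were taken by gene identifier from the deposited tables, and 3 of the 1973 miRNA loci listed there belong to it. Small RNA from forebrain tissue of 2 newborn mice of strain B6NCrl (postnatal day 0), pup 1 and pup 3, was sequenced as 1 miRNA library each, starting from total RNA. No treatment, genotype or time was compared, so the series holds 1 group with n = 2 animals. The labels give both pups an identical donor entry and no sex.

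MicroRNAs are cut from hairpin precursors, and each hairpin can give a mature strand from its 5′ arm (5p) and its 3′ arm (3p). Bases 2 to 8 of a mature miRNA, the seed, pair with target messenger RNAs and largely set which of them are repressed. The 3 hairpins of this cluster are processed from a common primary transcript, which is abundant in retinal photoreceptors, inner ear hair cells, olfactory epithelium and sensory ganglia. Changes in the seed of miR-96 cause progressive hearing loss in mice and in people.

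The 5p strands are shown first because their seeds are alike, though not identical. They come from RefSeq (GRCm38.p6), where all 3 members were matched by symbol, and the seed is in capitals:
miR-183-5p: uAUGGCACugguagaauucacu
miR-96-5p: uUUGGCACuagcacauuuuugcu
miR-182-5p: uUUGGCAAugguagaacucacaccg

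The seeds of miR-183-5p and miR-96-5p differ at 1 base, A2U, counted from the 5′ end with the base of miR-183-5p first. Those of miR-96-5p and miR-182-5p differ at 1 other base, C8A, with the base of miR-96-5p first. The seeds of miR-183-5p and miR-182-5p therefore differ at both positions, and positions 3 to 7, UGGCA, are the same in all 3. Outside the seed, compared without gaps from the 5′ end, miR-183-5p and miR-182-5p were identical at 13 of 15 bases, miR-183-5p and miR-96-5p at 7 of 15, and miR-96-5p and miR-182-5p at 6 of 16. The pair with the most seed differences was thus the most alike in the rest of the strand.

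The strands of the other arm are shown because the tables count both arms of a hairpin together. Their seeds, again in capitals, have no run in common like that of the 5p strands:
miR-183-3p: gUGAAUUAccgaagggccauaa
miR-96-3p: cAAUCAUGuguagugccaauau
miR-182-3p: gUGGUUCUagacuugccaacu

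Each pair of 3p strands was identical at 7 bases, of 22 compared for miR-183-3p and miR-96-3p and of 21 for the other pairs. Of 1732 other mature mouse miRNAs in the RefSeq table, 1 had the seed of a 5p strand of the cluster. This was miR-1271-5p, with the seed of miR-96-5p, and its locus (listed as Gm24195) had no count in either pup. Only that strand and miR-7022-5p had UGGCA at positions 3 to 7. Mir7022 had 1 count in pup 1 and 0 in pup 3. The letters UGGCA stood elsewhere in the seed of 2 more, miR-221-5p and miR-3069-5p. The Mir221 locus had 550 CPM (counts scaled to a library total of 1000000) in pup 1 and 447 in pup 3. Among the 3p strands, the seed of miR-96-3p recurred in miR-3475-5p, and Mir3475 had 46.3 CPM in pup 1 and 30.1 CPM in pup 3.

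The hairpins are shown because a count belongs to a whole hairpin, with both mature strands in capitals:
Mir183: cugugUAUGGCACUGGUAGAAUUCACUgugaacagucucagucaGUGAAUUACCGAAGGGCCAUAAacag
Mir96: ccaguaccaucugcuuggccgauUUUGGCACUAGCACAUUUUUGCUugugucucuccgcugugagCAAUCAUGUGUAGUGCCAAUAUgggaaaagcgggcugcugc
Mir182: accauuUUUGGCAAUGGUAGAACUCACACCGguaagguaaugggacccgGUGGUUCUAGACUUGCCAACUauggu

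The annotated hairpins were 70 nt (Mir183), 106 nt (Mir96) and 75 nt (Mir182) long, and the stretch between the mature strands was 17, 19 and 18 nt. The longest run that a member hairpin had in common with any other of 1894 annotated miRNA hairpins was 11 nt, for Mir96, and it was 10 nt for Mir183 and Mir182. All of these runs are shorter than a mature miRNA. Reads that mapped to several places were counted at no locus, and no annotated hairpin repeats a whole mature strand of the cluster.

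The 3 genes lie on the minus strand of chromosome 6 of GRCm38, outside any other annotated gene. Mir183 (ENSMUSG00000065619.2, chr6:30169668-30169737) is first in the direction of transcription. Mir96 (ENSMUSG00000065586.1, chr6:30169446-30169551) follows after 116 bp. Mir182 (ENSMUSG00000076361.1, chr6:30165918-30165992) lies a further 3453 bp away, so that the hairpins span 3820 bp in all. The long noncoding RNA gene Rncr4, known from the retina, starts 3155 bp from Mir183 and runs away from it on the plus strand. The nearest protein-coding genes were Nrf1, a transcription factor of mitochondrial genes, 12459 bp beyond Mir182, and Ube2h, a ubiquitin-conjugating enzyme, 41551 bp on the other side.

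**Figure D1:**
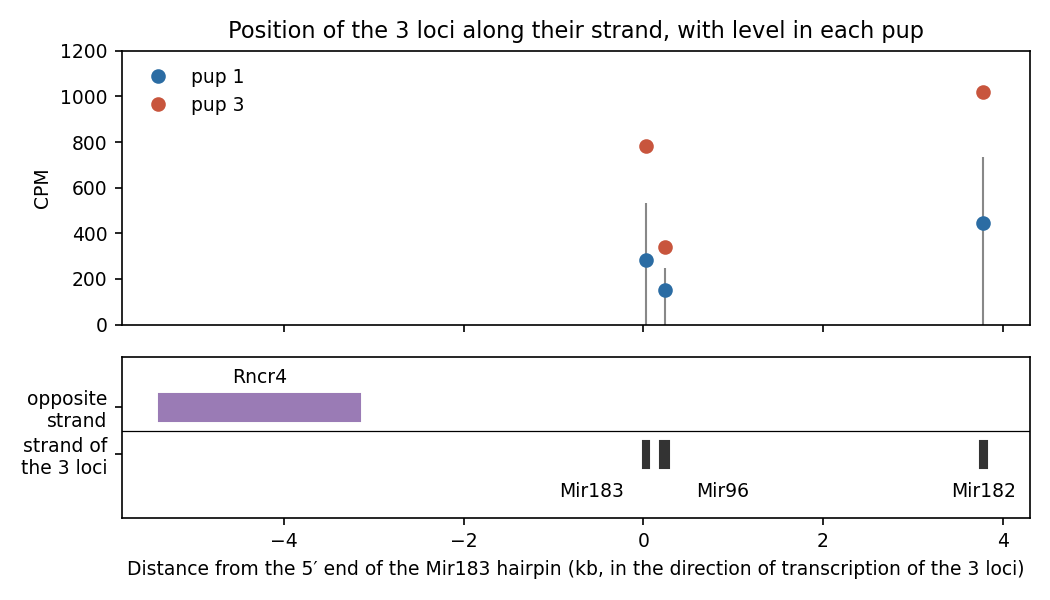
The lower panel draws the hairpins and Rncr4 to scale along the strand of the cluster, as distance in kb from the 5′ end of the Mir183 hairpin, and the upper panel gives the CPM of each hairpin in pup 1 and pup 3, with a grey line up to the mean. Mir183 and Mir96 lie 116 bp apart and Mir182 3453 bp further on, and the hairpin in the middle had the lowest level in both pups.

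The libraries were of like depth. Counts on the strand of a miRNA gene came to 2742746 in pup 1 and 2427066 in pup 3, 41.2% and 41.3% of all reads, and reads that mapped to several places to 42.2% and 44.1%. At these depths a count of 0 allows up to 3 counts, which is 1.09 CPM for pup 1 and 1.24 CPM for pup 3. This limit and all intervals cover counting error only, since PCR copies cannot be told from separate molecules. Most neuronal markers of the labelled tissue were present, with 10 of 13 loci at 10 or more counts in both pups. Mir137, a miRNA of developing neurons, had 25786 ± 3504 CPM (SD, n = 2). The Mir124a copies were low, with 15 counts in pup 1 and 21 in pup 3 at Mir124a-1. Mir124a-2 had 5 and 4, Mir124a-3 had 3 and 2, and Mir9-2 had 8 and 2. Reads that mapped to several places were counted at no locus, and whether this lowered these loci was not tested.

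All 3 members were detected in both forebrains, at levels far below the leading miRNAs. Mir182 had 1220 counts in pup 1 and 2478 in pup 3, which is 445 CPM (95% exact Clopper-Pearson interval 420 to 470) and 1021 CPM (981 to 1062). Mir183 had 781 and 1903 counts, or 285 CPM (265 to 305) and 784 CPM (749 to 820). Mir96 had 414 and 826 counts, or 151 CPM (137 to 166) and 340 CPM (318 to 364). Pup 3 was the higher library for each member, and no interval of pup 3 overlapped that of pup 1. Differences beyond counting error were common between these libraries. Fisher's exact test, described below, called 226 of the 400 loci with at least 10 summed counts (56.5%) either higher or lower.

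Among all 1973 loci, Mir182 stood at rank 135 in pup 1 and 96 in pup 3, Mir183 at 160 and 103, and Mir96 at 187 and 139. The 331 loci with at least 10 counts in both pups had a median of 232 CPM. The mean of Mir96 (246 ± 134 CPM, SD, n = 2) was near that median, while Mir183 (534 ± 353 CPM) and Mir182 (733 ± 407 CPM) were above it. Together the members held 0.0881% of the counts of pup 1 (0.0846 to 0.0916%) and 0.215% of those of pup 3 (0.209 to 0.220%).

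**Figure D2:**
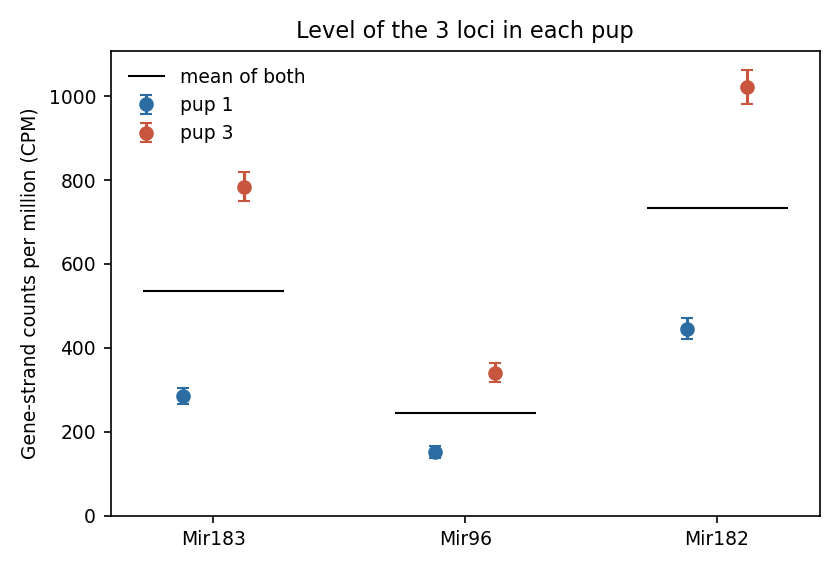
Points give the CPM of each member in pup 1 and pup 3, with 95% exact Clopper-Pearson intervals for counting error, and horizontal lines give the mean of both pups. Mir182 was highest and Mir96 lowest in each pup, and pup 3 (340 to 1021 CPM) was higher than pup 1 (151 to 445 CPM) at every member.

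The order of the members was the same in both animals. Mir182 had 1.56 times the counts of Mir183 in pup 1 (exact conditional binomial interval 1.43 to 1.71) and 1.30 times in pup 3 (1.23 to 1.38). Mir183 in turn had 1.89 times those of Mir96 in pup 1 (1.67 to 2.13) and 2.30 times in pup 3 (2.12 to 2.50). All of these intervals lay above 1. The means over the pups, by contrast, differed between Mir182 and Mir183 by less than the SD of either, and between Mir183 and Mir96 by less than the SD of Mir183. A read covers a whole mature miRNA, and the 5p strands are 22 to 25 nt long, so counts were not divided by length. Ligation and amplification favour some small RNA sequences, which the intervals between members do not cover.

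The members lay closer in level than those of most other miRNA clusters in these libraries. Loci at most 10 kb apart on a strand formed 11 clusters with at least 3 loci of 100 or more summed counts. The highest and the lowest member of the miR-183/96/182 cluster differed by 2.98-fold in mean CPM, the second smallest difference of the 11, whose median was 21.4-fold. Only the X-linked cluster of Mir363, Mir92-2, Mir20b and Mir106a had a smaller one, 2.32-fold. Several of the other clusters have more loci, and a cluster with more members has more room for a wide range.

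Each member was more than 2-fold higher in pup 3 than in pup 1. The CPM ratio was 2.75 for Mir183 (exact conditional binomial interval 2.53 to 3.00), 2.30 for Mir182 (2.14 to 2.46) and 2.25 for Mir96 (2.00 to 2.54). Fisher's exact test of a locus against the rest of its library (two-sided, Benjamini-Hochberg over the 400 loci with at least 10 summed counts) gave adjusted p = 6.24e-138 for Mir183, 2.84e-132 for Mir182 and 3.08e-43 for Mir96. It called 41 of the 400 loci higher in pup 3, or 10.2%, and all 3 members were among these. Of the same 400 loci, 3.25% were at least 2-fold higher. Each side of the test is 1 pup, so it compares these libraries and no conditions, and it takes no account of how much animals vary.

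The scale did not decide the direction. The log2 ratio (CPM + 1, pup 3 over pup 1) had a median of −0.31 over the tested loci. The log2 ratios of Mir183 (1.46), Mir182 (1.20) and Mir96 (1.17) lay 1.77, 1.51 and 1.48 above that median. On library totals 46.2% of the loci were called lower, and 56.5% either way. TMM factors gave 20.5% higher and 26% lower, and the size factors of DESeq2 gave 24.5% and 20.8%. All 3 members were called higher on each of these scales.

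Few loci of comparable depth were higher in pup 3 by as much, and on library totals as many were lower. Of 275 loci with at least 100 summed counts, 9 (3.27%) were at least 2-fold higher in pup 3, namely the 3 members, all 5 loci of the miR-200 family, and Mir208b. Mir183 was second among the 275, Mir182 seventh and Mir96 eighth, and the highest of the remaining loci, Mir28a (named after its values were seen), had a log2 ratio of 0.71. Another 9 of the 275 (3.27%) were at least 2-fold lower on library totals, down to −1.31 at Mir1224, with 130 and 45 counts, and −1.18 at Mir760, with 825 and 320 counts. These 2 loci were also named after their values were seen.

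**Figure D3:**
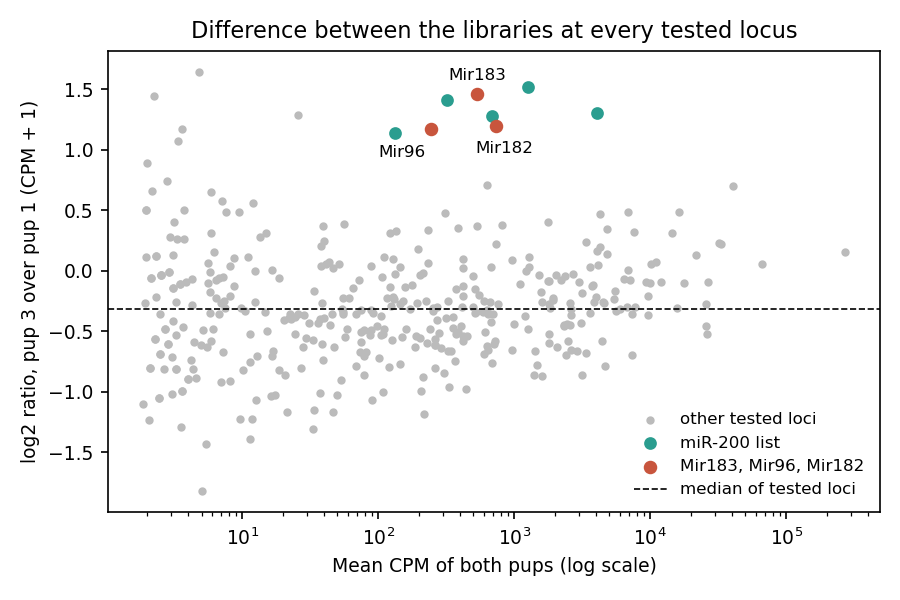
Each point is 1 of the 400 tested loci, with its mean CPM in both pups on a log axis and the log2 ratio of CPM + 1 in pup 3 over pup 1, and the dashed line marks the median of −0.31. The members (1.17 to 1.46) and the miR-200 loci (1.14 to 1.51) lie above the other loci of their level.

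The split of the cluster's counts among its members shifted towards Mir183 in pup 3. Mir183 made up 32.3% of the cluster's counts in pup 1 (30.5 to 34.2%) and 36.5% in pup 3 (35.2 to 37.9%). Mir182 made up 50.5% (48.5 to 52.5%) and 47.6% (46.2 to 49.0%), and Mir96 17.1% (15.7 to 18.7%) and 15.9% (14.9 to 16.9%). The ratio of Mir183 to Mir182 was 1.20 times higher in pup 3 (95% interval 1.08 to 1.34, adjusted Fisher's exact p = 0.00283 over the 3 pairs of members). The ratio of Mir183 to Mir96 was 1.22 times higher (1.05 to 1.41, adjusted Fisher's exact p = 0.0108). That of Mir96 to Mir182 was 0.982 times its value in pup 1 (0.855 to 1.13, adjusted Fisher's exact p = 0.807). These ratios within the cluster do not depend on the library scale, and they too compare 2 libraries only.

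**Figure D4:**
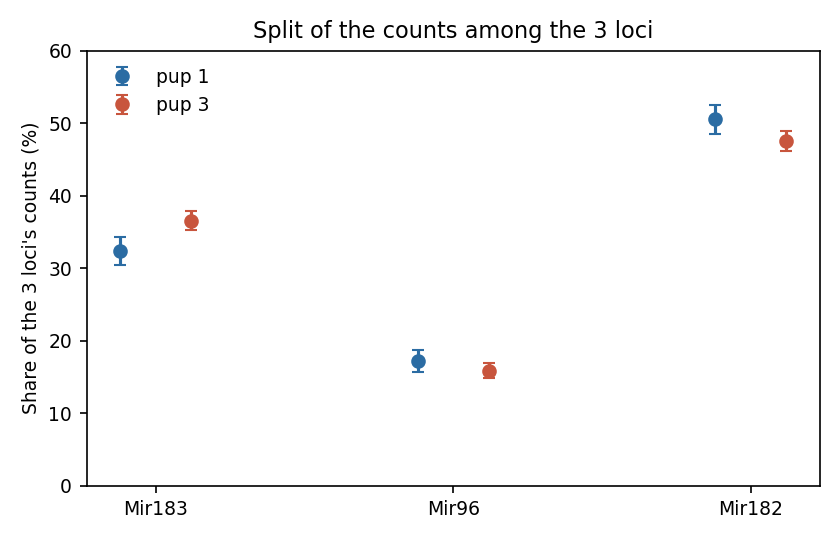
Points give the share of the cluster's summed counts at each member in pup 1 (2415 counts) and pup 3 (5207 counts), with 95% exact Clopper-Pearson intervals. Mir183 had the larger share in pup 3, with intervals that do not overlap, while those of Mir96 and of Mir182 overlap.

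Shifts within the cluster were small beside the difference between the animals. Among the 11 clusters, the log2 ratios of the 3 members spanned 0.29, the second narrowest range, against a median of 0.51. The narrowest, 0.21, belonged to Mir429, Mir200a and Mir200b, also a cluster of 3 loci. As for the level, a cluster with more loci has more room for a wide range of ratios. By the median log2 ratio of its loci the cluster was second of the 11 with 1.20, below the same miR-200 cluster with 1.41, and 4 of the 11 had a median above 0 on library totals.

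The loci whose ratio was most like that of the summed cluster (log2 ratio 1.28, CPM ratio 2.44, 95% interval 2.32 to 2.56) were mostly of the miR-200 family. Likeness was the distance in log2 ratio over the 2 libraries, so it rests on a single difference. Mir208b, encoded in the slow heavy chain gene Myh7, was nearest, with 40 counts in pup 1 and 90 in pup 3 (log2 ratio 1.29). Next came Mir200c (1.28), Mir429 (1.30), Mir200a (1.41) and Mir141 (1.14). The loci nearest to the summed cluster in level did not have such a ratio. Just above its mean of 1513 ± 894 CPM were Mir433 (log2 ratio −0.87), Mir532 (−0.18) and Mir15b (−0.04), and just below it Mir323 (−0.78), Mir370 (−0.67) and Mir296 (−0.86).

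The miR-200 family keeps cells epithelial by repressing Zeb1 and Zeb2, and it is high in olfactory epithelium and other epithelia. Its 5 loci lie in 2 clusters, with Mir429, Mir200a and Mir200b on chromosome 4 and Mir200c and Mir141 on chromosome 6. Mir429 had 2361 CPM in pup 1 and 5822 in pup 3. Mir200b had 657 and 1880 CPM, Mir200c 400 and 972, Mir200a 175 and 467, and Mir141 82.0 and 182. All 5 were called higher in pup 3 on library totals (10.2% of tested loci), TMM factors and size factors. Their summed level was 3676 CPM in pup 1 and 9324 CPM in pup 3.

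The cluster kept nearly the same level relative to this family. Its summed counts were 0.240 times those of the miR-200 loci in pup 1 and 0.230 times in pup 3. The ratio of these values was 0.961 (95% interval 0.910 to 1.01), a comparison chosen after the values were seen. It restates the likeness in log2 ratio given above and is no separate finding. The miR-200 loci, as markers of epithelium, were higher in the same library as the cluster. Whether epithelium had a part in the cluster's difference between the pups was not tested. Fewer cells of a type and less RNA per cell cannot be told apart in forebrain tissue.

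Markers of other tissues that a forebrain dissection could hold did not all move this way. The counts called below are read against the shares of all 400 tested loci. On library totals 10.2% were higher and 46.2% lower, with TMM factors 20.5% and 26%, and with size factors 24.5% and 20.8%. The stratified epithelium and skin list (3 loci) summed to 1419 CPM in pup 1 and 1386 CPM in pup 3, and its leader Mir203 had 1225 CPM in both. On library totals 0 of its 3 loci were called higher and 1 lower, and with size factors 1 was higher and 0 lower, and 1 of 3 is near the shares of all tested loci. Loci of multiciliated cells, such as the ependyma that lines the ventricles, summed to 8197 CPM and 4927 CPM, with 3 of 5 tested loci called lower in pup 3 on every scale. Of all tested loci, 46.2% were lower on library totals, but 26% with TMM factors and 20.8% with size factors. The share of 3 in 5 was thus well above that of all loci on the last 2 scales, though over few loci. The 5 loci lie in 2 clusters, on chromosomes 9 and 13, so they are not separate observations. The loci not called had few counts, 14 and 5 at Mir449b and 17 and 10 at Mir449c. The leader of the multiciliated list, Mir449a, had 5923 and 3430 CPM.

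Pituitary and neuroendocrine loci, led by Mir7b (2958 and 1825 CPM), summed to 4621 and 3189 CPM. All 4 were called lower on library totals (46.2% of all tested loci), but with TMM factors or size factors 1 of 4 was, near the 26% and 20.8% of all tested loci. The choroid plexus and pigment epithelium loci, Mir204 (2931 and 2273 CPM) and Mir211 (6.93 and 6.59 CPM), summed to 2938 and 2280 CPM, with 1 of 2 lower on library totals and with TMM factors and 0 with size factors. Neuronal loci summed to 49755 and 43445 CPM, with 3 of 11 tested loci higher and 5 lower on library totals and 4 each way with size factors. The lower calls on library totals are about the 46.2% share of all tested loci, of which 10.2% were higher. With size factors 24.5% of all tested loci were higher and 20.8% lower.

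The remaining lists were those of muscle, the Hox clusters, blood vessels and red blood cells. Of all tested loci, 10.2% were higher and 46.2% lower on library totals. The shares were 20.5% and 26% with TMM factors, and 24.5% and 20.8% with size factors. Muscle loci summed to 21.9 and 41.6 CPM. Mir208b (14.6 and 37.1 CPM) was called higher, Mir206 had 7.29 and 4.53 CPM, and 4 of the 6 loci with a row, among them Mir1a-1 and Mir133b, were at 0 in both libraries. Mir133a-1, Mir133a-2 and Mir133b each have a run of at least 21 nt in common with another of these hairpins, and Mir1a-1 has a copy, Mir1a-2, that matched no row. Reads that map to several places were not counted, so these zeros do not show that the miRNAs were absent. Hox cluster loci, which mark hindbrain and spinal cord, summed to 236 and 268 CPM, led by Mir10b (120 and 150 CPM). Of 4 tested Hox loci, 2 were higher on every scale, a share above that of all tested loci, though over few loci. On library totals these were Mir10b and Mir196b. Mir196b, named after its values were seen, had only 5 counts in pup 1 and 19 in pup 3. Blood vessel loci summed to 34960 and 39382 CPM, led by Mir126a of the endothelium (30517 and 35573 CPM). Of these 3 loci, 1 was higher and 2 lower on library totals, and 2 higher and 0 lower with size factors. Red blood cell loci summed to 88.2 and 71.3 CPM, led by Mir451a (51.0 and 37.1 CPM), with 1 of 3 lower on library totals and 0 on the other scales.

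**Figure D5:**
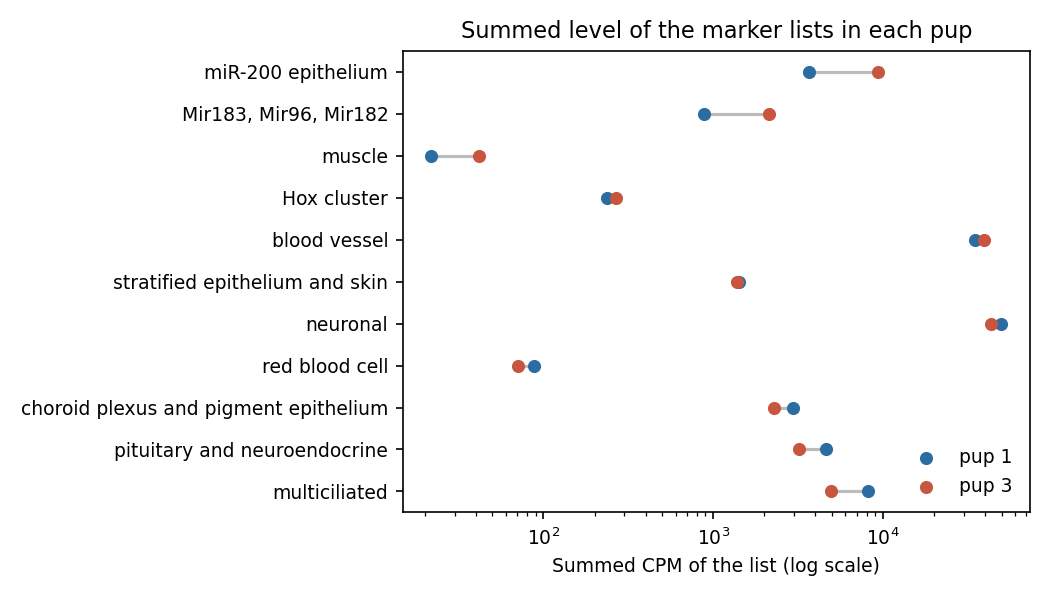
Points give the summed CPM of each marker list in pup 1 and pup 3 on a log axis, ordered by their ratio. The miR-200 list (3676 and 9324 CPM) and the miR-183/96/182 cluster (881 and 2145 CPM) had the largest ratios, and the multiciliated list (8197 and 4927 CPM) the smallest.

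Counts on the strand opposite the members were few. Mir183 had 4 in pup 1 and 6 in pup 3, Mir182 had 0 and 2, and Mir96 had none in either. Over all loci, 2.41% of the counts of both strands lay opposite the gene in pup 1 and 1.87% in pup 3.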

How the data were processed

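The authors worked with assembly mm10 and annotation M4, per the labels and a text file among those deposited, and deposited 1 table of raw read counts per miRNA locus for each library. Which aligner and counting tool were used is not given in the sources used here. The deposited tables have 3 columns of counts, for both strands, the gene strand and the opposite strand (known from how the columns add up). The gene-strand column was used, and the 4 rows that name no gene were left out of the totals. Of the 1973 loci, 1894 were named from GENCODE M21 (GRCm38) by identifier. CPM, ratios (CPM + 1), exact intervals at 95% and Fisher's exact tests with a threshold of 0.05 were computed from the counts. A quasi-likelihood test needs a contrast, which a single group lacks, so edgeR and DESeq2 gave only scaling factors. With those factors the exact conditional binomial test took the place of Fisher's.

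Named loci were the members, the 5 loci of at least 100 summed counts nearest in log2 ratio, the 3 just above and below the summed cluster in level, the leader of each of 10 marker lists, the miR-200 loci, and loci with a member's seed or UGGCA in the seed. The members and lists were chosen with earlier results of these data known. Mir9-1 and Mir1a-2 matched no row and are in no list sum. The comparisons with other clusters and with the summed miR-200 loci were added after the values were seen. Scaling factors came from DESeq2 1.42.0 and edgeR 4.0.16 in R 4.3.3, tests from scipy 1.17.1 and figures from matplotlib 3.10.9, with pandas 2.3.3 and numpy 2.4.6 in Python 3.11.15.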

Additional observations from a re-analysis of the deposited data

Results flagged for a closer look

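Counts on the opposite strand, which no comparison uses, were above the 3 counts that a count of 0 allows at Mir183, with 4 in pup 1 and 6 in pup 3. Over the tables, 16 loci had more than 3 such counts in both pups.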

How the results depend on the processing

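Of 99 alternative values for 18 results, 89 kept the result by the criterion set for it, and none reversed. Some of the 89 could not have changed. The amount added to CPM (0.1 or 10 in place of 1) does not enter the test or turn the direction of a ratio. The lowest summed count asked of a locus does not enter the ratio of a member or of the cluster. Levels and the order of the members were judged by size. The log2 ratio of each member and the ratios within the cluster were judged by direction and call alone. Member log2 ratios that grew with the scale are thus among the 89. Mir183 had 1.71 with TMM factors and 1.77 with size factors, against 1.46 on library totals. Mir182 had 1.45 and 1.51, against 1.20, and Mir96 1.42 and 1.48, against 1.17. As a share of all reads every level was lower: the cluster held 0.0624%, Mir183 0.0220%, Mir96 0.0101% and Mir182 0.0302%, against 0.151%, 0.0534%, 0.0246% and 0.0733% of gene-strand counts. The drop follows from the larger total, of which gene-strand counts were 41.2% in pup 1 and 41.3% in pup 3. For Mir96 and Mir182 the drop was larger than the SD between the pups, and for the other 2 values it was just under it. The log2 ratio of the summed cluster was 1.53 with TMM factors and 1.60 with DESeq2 size factors, against 1.28 on library totals. Loci called higher in pup 3 numbered 82 with TMM factors and 98 with size factors, against 41, and those called lower 104 and 83, against 185 (these counts were added after the data were seen). Per base of the hairpin, the count ratio of Mir183 to Mir96 was 3.17 and that of Mir182 to Mir96 4.20, against 2.10 and 2.97 per locus. The cluster share was 0.0881% without pup 3 and 0.215% without pup 1, and with 2 libraries each such value lies within 1 SD of the mean by construction. The difference between the pups has no value without either of them. No paired analysis was possible because the series has 1 group. The depth allowed ratio intervals no wider than 2.00 to 2.54 for a member, and the spread between animals rests on n = 2.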
